A study of Mus musculus with 30 samples.

Results

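The feedback inhibitors of the SOCS family are described here through 4 genes, Socs1, Socs2, Socs3 and Cish, chosen by name among the 31427 gene symbols of the series and read in TPM, a transcript's share of a library corrected for its length. The cells were DC3.2, a dendritic line from mouse, written DC32R in the titles of the replicated samples and Dc3.2 in the others. All 4 passed a filter on low values (1 TPM or more in 2 or more of the 24 replicated libraries), as did 11842 symbols in all. Those libraries form 12 groups of 2. WT cells, titled nosg, stand beside IRF1KO (IRF1sg), IRF2KO (IRF2sg) and DKO cells, the last with both interferon regulatory factors targeted, and each genotype was held for 2 h in media, in 5000 U/mL IFNα or in 2 ng/mL IFNγ. A separate set of 6 libraries, 1 per condition, holds WT and IRF2KO cells untreated at 0 h, after 2 h of IFNα at that dose and after 2 h of LPS, the bacterial lipopolysaccharide, at a dose the labels do not give. A targeting control is not among the labels. Nor do they say whether the 2 replicates came from different cultures, and the p-values then cover only a spread between libraries that may be technical.

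SOCS proteins close a negative feedback loop. A cytokine receptor activates JAK kinases, these activate STAT factors, and the STATs switch on SOCS genes whose products bind back to the receptor or the kinase. Socs1 and Socs3 can inhibit JAK kinases directly, Socs1 being known above all as a restraint of interferon signalling and Socs3 of signalling through the gp130 receptor chain. Cish and Socs2 are best known as genes switched on by STAT5, the factor used by GM-CSF and growth hormone, and their products bind phosphorylated receptors. A SOCS box in each protein recruits a ubiquitin ligase that can mark bound proteins for degradation.

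STAT dimers bind the GAS element, which reads TTCNNNGAA, and factors of the IRF family bind repeats of GAAA, so the sequence before each start site is shown with such letters in capitals. RefSeq start windows on GRCm38.p6 matched 3 of the 4 members, and Socs2 had no entry. Each window of 300 bases was searched on both strands. For Socs1 the stretch is chr16:10785537-10785786 on the minus strand, read 5′ to 3′ along the gene up to the base before the start. For Socs3 it is chr11:117969367-117969616 on the minus strand. The Socs3 stretch precedes the start RefSeq's window uses, 117969366, and lies inside the span of the gene, whose outermost 5′ end is at 117970336. For Cish the motifs lie after the start, in the first 20 transcribed bases at chr9:107296659-107296678 on the plus strand.
Socs1: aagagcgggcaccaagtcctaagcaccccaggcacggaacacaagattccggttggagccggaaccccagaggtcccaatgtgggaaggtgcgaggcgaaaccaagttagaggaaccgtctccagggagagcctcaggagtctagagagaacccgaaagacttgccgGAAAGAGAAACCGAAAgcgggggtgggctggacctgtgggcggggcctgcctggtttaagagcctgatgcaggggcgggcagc
Socs3: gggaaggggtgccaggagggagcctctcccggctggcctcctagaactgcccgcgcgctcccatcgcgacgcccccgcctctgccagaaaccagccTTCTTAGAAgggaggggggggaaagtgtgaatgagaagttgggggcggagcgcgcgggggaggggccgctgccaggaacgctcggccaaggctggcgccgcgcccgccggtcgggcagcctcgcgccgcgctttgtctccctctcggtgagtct
Cish: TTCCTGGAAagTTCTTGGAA
In the Socs1 stretch, 3 GAAA repeats stand 2 bases apart from position -83 to -68, counted back from the start. That run, GAAANNGAAANNGAAA, was found in 38 of 32851 start windows (0.116%), and the shorter GAAANNGAAA, which it contains 2 times with the middle repeat shared, in 1131 (3.44%). TTCNNNGAA was found at -154 to -146 for Socs3 and at 1 to 9 and 12 to 20 for Cish. It was found in 2726 windows (8.3%), and 150 windows (0.457%) held at least 2. A match is a description of the letters and not a measured site.

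Interferon moved the members in opposite directions. Averaged over the 4 genotypes, Socs1 rose with IFNγ and Socs3 rose with both interferons, while Socs2 and Cish fell with IFNγ and did not pass the test with IFNα. These averages were added after the values were seen, in the same limma fit of log2(TPM + 1) over all 24 libraries. A difference was called at a Benjamini-Hochberg adjusted p under 0.05 over all 11842 genes. Differences below are on that log2 scale with their SE, and folds are on the same scale. Whether groups of 2 libraries overlap is given as a description only, since the share of all genes without overlap was not counted.

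**Figure D1:**
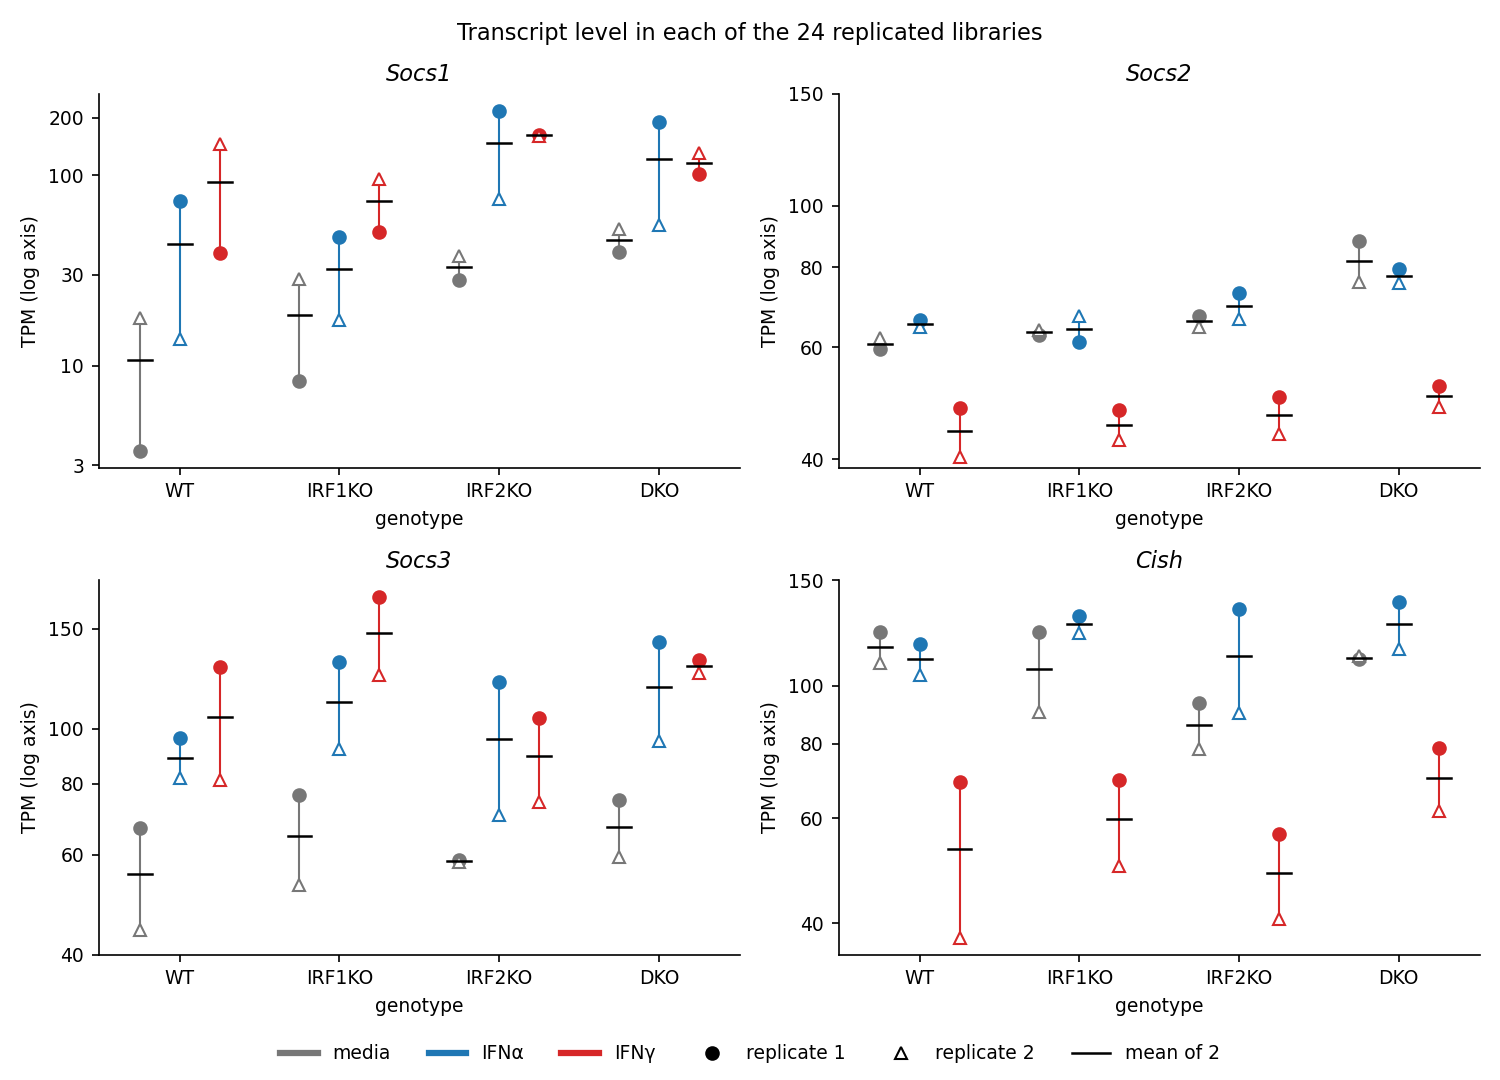
TPM of each member (log axis) by genotype, with grey for media, blue for IFNα and red for IFNγ, filled circles for replicate 1, open triangles for replicate 2 and a bar for their mean. Red points lie below grey and blue ones in every genotype for Socs2 and Cish, and coloured points lie above grey ones in every genotype for Socs3, while the 2 replicates of Socs1 lie far apart in many groups.

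Socs3 (chromosome 11, 117966079 to 117970336 on GRCm38.p6) ranged from 44.2 to 76.6 TPM over the 8 media libraries, from 70.5 to 142 over the 8 IFNα libraries and from 74.3 to 171 over the 8 IFNγ libraries. In WT the 2 media libraries held 66.9 and 44.2 TPM (replicates 1 and 2), the IFNα libraries 96.2 and 81.8, and the IFNγ libraries 128 and 81.2. Both treated groups lay above media without overlap, as they did in each of the 3 mutant lines. In IRF1KO, Socs3 went from 76.6 and 53.0 TPM in media to 131 and 92.1 with IFNα and 171 and 124 with IFNγ, the highest group of the 12. In IRF2KO it went from 58.6 and 58.3 TPM to 121 and 70.5 with IFNα and 104 and 74.3 with IFNγ. In DKO it went from 74.9 and 59.5 TPM to 142 and 95.04 with IFNα and 132 and 126 with IFNγ. Averaged over genotypes, Socs3 rose by 0.73 ± 0.15 with IFNα (1.66-fold, adjusted p = 0.0137, limma) and by 0.90 ± 0.15 with IFNγ (1.87-fold, adjusted p = 0.00153, limma). Within replicate numbers it was higher in 8 of 8 pairs with each interferon. The averages between the interferons differed by 0.17 ± 0.15 (adjusted p = 0.88, limma), with a 95% interval from -0.16 to 0.50.

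Socs3 was not called within any single genotype, where the differences with IFNα were 0.69 in WT, 0.78 in IRF1KO, 0.65 in IRF2KO and 0.79 in DKO, and those with IFNγ were 0.90, 1.18, 0.58 and 0.94, each with an SE of 0.31. Replicate 1 held more Socs3 than replicate 2 in 12 of 12 groups, by 1.005- to 1.72-fold. With the replicate number as a block (replicate block) the SE fell to 0.15, and Socs3 was called higher in 7 of these 8 comparisons, all but IRF2KO with IFNγ. The adjusted p of the 7 ran from 0.000245 in IRF1KO with IFNγ to 0.0376 in IRF2KO with IFNα.

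Socs1 (chromosome 16, 10783808 to 10785536) had the widest range of the 4, from 3.58 to 218 TPM, 61.0-fold, against 2.18-fold for Socs2, 3.86-fold for Socs3 and 3.65-fold for Cish. In WT it held 3.58 and 17.8 TPM in media, 72.9 and 13.8 with IFNα, and 39.1 and 145 with IFNγ, replicate 1 first. In IRF1KO it held 8.33 and 28.7 TPM in media, 47.3 and 17.4 with IFNα, and 50.0 and 95.7 with IFNγ. In these lines replicate 2 with IFNα lay between the 2 media libraries, whereas both IFNγ libraries lay above both media libraries. In IRF2KO the values were 28.0 and 37.9 TPM in media, 218 and 75.3 with IFNα, and 162 and 161 with IFNγ. In DKO they were 39.5 and 52.0 TPM in media, 190 and 54.4 with IFNα, and 102 and 130 with IFNγ. In IRF2KO and DKO neither interferon group overlapped media.

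Averaged over genotypes, Socs1 rose by 2.18 ± 0.45 with IFNγ (4.53-fold, adjusted p = 0.00706, limma), and all 8 pairs within a replicate number were higher, by 2.50- to 10.9-fold. The average with IFNα was 1.44 ± 0.45 (2.72-fold) and was not called (adjusted p = 0.142, limma). Within genotypes no difference of Socs1 was called in this fit or with the plain replicate block. With IFNα they were 1.83 in WT, 0.84 in IRF1KO, 1.95 in IRF2KO and 1.15 in DKO, and with IFNγ 3.05, 2.08, 2.27 and 1.32, each with an SE of 0.89. The difference between the 2 interferon averages was 0.74 ± 0.45, with a 95% interval from -0.21 to 1.69.

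The response of Socs1 to IFNα differed between the replicate numbers. In replicate 1 the IFNα library held 20.4 times the TPM of the media library in WT, 5.68 times in IRF1KO, 7.79 times in IRF2KO and 4.80 times in DKO. In replicate 2 the ratios were 0.775, 0.607, 1.99 and 1.05 in the same order. Replicate 2 was higher than replicate 1 in 4 of 4 media groups and lower in 4 of 4 IFNα groups, by 2.71- to 5.30-fold in the latter. The median gap between replicates was 1.46 on the log2 scale, and 22 of 11842 genes had a larger one, while the median gene had 0.191. For comparison, Usp18, a protease that restrains the type I interferon receptor, had IFNα ratios from 26.1 to 81.2 over the 8 pairs, and Irf1 from 6.04 to 11.9. Gbp2, a guanylate-binding protein named here after its values were seen, had ratios above 1 in 8 of 8 pairs, though in WT they were 7.76 and 36.6. The cause of the split in Socs1 was not tested.

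With the replicate number as a block within each treatment, an alternative added after the values were seen, the SE of the Socs1 average fell from 0.45 to 0.21. The IFNα average of 1.44 was then called (adjusted p = 0.000546, limma), in a fit that called 4.18% of all genes. Within genotypes this alternative called Socs1 higher in 4 of 8 comparisons, in WT with IFNγ (adjusted p = 0.000656, limma), in IRF1KO with IFNγ (0.0196), in IRF2KO with IFNα (0.0270) and in IRF2KO with IFNγ (0.00935). It called 1.41%, 1.11%, 1.77% and 1.44% of all genes for IFNα and 1.84%, 1.66%, 2.19% and 1.53% for IFNγ in WT, IRF1KO, IRF2KO and DKO. That fit takes the gap between the numbers as shared by the 4 genotypes within a treatment, and an IFNα average of 2.88 in replicate 1 and of 0.00 in replicate 2 stands behind the 1.44. The direction with IFNα thus rested on replicate 1 in WT and IRF1KO. In DKO the ratio of IFNα to media was 1.05 in replicate 2 against 4.8 in replicate 1, and in IRF2KO 1.99 against 7.79.

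**Figure D2:**
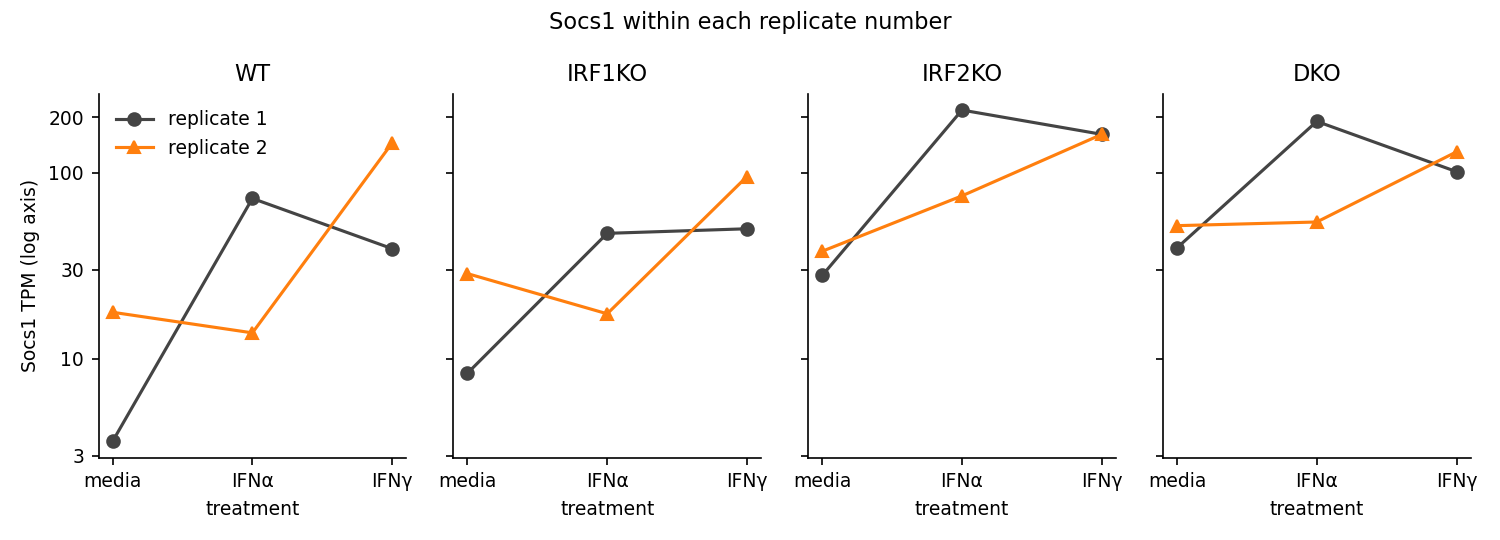
Socs1 TPM (log axis) by treatment in each genotype, with lines joining the libraries of 1 replicate number (grey circles for replicate 1, orange triangles for replicate 2). Grey lines peak at IFNα in WT, IRF2KO and DKO, and orange lines peak at IFNγ in all 4 genotypes.

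Socs2 (chromosome 10, 95383903 to 95417321) had the closest replicates of the 4 members, 1.02- to 1.19-fold apart. In WT it held 59.5 and 62.0 TPM in media, 66.1 and 64.6 with IFNα and 48.2 and 40.3 with IFNγ. The 8 IFNγ libraries of all genotypes, from 40.3 to 52.1 TPM, lay below the 8 media libraries (59.5 to 88.1) and the 8 IFNα libraries (61.0 to 79.6). Averaged over genotypes, Socs2 fell by 0.53 with IFNγ against media (SE 0.05, 0.695-fold, adjusted p = 8.92e-06, limma) and differed by 0.03 ± 0.05 with IFNα, with a 95% interval from -0.09 to 0.15. Set directly against IFNα, it fell by 0.56 with IFNγ (SE 0.05, adjusted p = 4.65e-06, limma), and all 8 pairs within a replicate number were lower. By genotype, the difference between IFNγ and media was -0.69 in DKO (adjusted p = 0.00296, limma), -0.48 in IRF2KO (0.0477) and -0.47 in IRF1KO (0.0495), all called, and -0.45 in WT (0.0623), called with the replicate block (adjusted p = 0.0133). Between IFNγ and IFNα it was called lower in all 4 genotypes, at -0.56 in WT, -0.49 in IRF1KO, -0.56 in IRF2KO and -0.62 in DKO, each with an SE of 0.11.

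Cish (chromosome 9, 107296659 to 107302784) was likewise lowest with IFNγ in each genotype. In WT it held 123 and 109 TPM in media, 117 and 104 with IFNα and 68.9 and 37.8 with IFNγ. Over all genotypes the 8 IFNγ libraries ranged from 37.8 to 78.5 TPM, the media libraries from 78.2 to 123 and the IFNα libraries from 90.0 to 138, so the highest IFNγ value, in DKO, passed the lowest media value, in IRF2KO, while no overlap occurred within a genotype. Averaged over genotypes, Cish fell by 0.87 with IFNγ against media (SE 0.13, 0.546-fold, adjusted p = 0.000417, limma) and by 1.05 against IFNα (SE 0.13, 0.481-fold, adjusted p = 6.59e-05, limma). With IFNα the average was 0.18 ± 0.13 and was not called (adjusted p = 0.77, limma). Within genotypes the IFNγ difference from media was called in WT, at -1.17 ± 0.26 (adjusted p = 0.0373, limma), and stood at -0.83 in IRF1KO, -0.82 in IRF2KO and -0.67 in DKO. Against IFNα it was called in IRF2KO, at -1.18 ± 0.26 (adjusted p = 0.0465, limma), and stood at -1.10 in WT, -1.09 in IRF1KO and -0.85 in DKO. Replicate 1 was higher in 11 of 12 groups, and with the replicate block Cish was called lower with IFNγ in 4 of 4 genotypes against media and in 4 of 4 against IFNα.

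**Figure D3:**
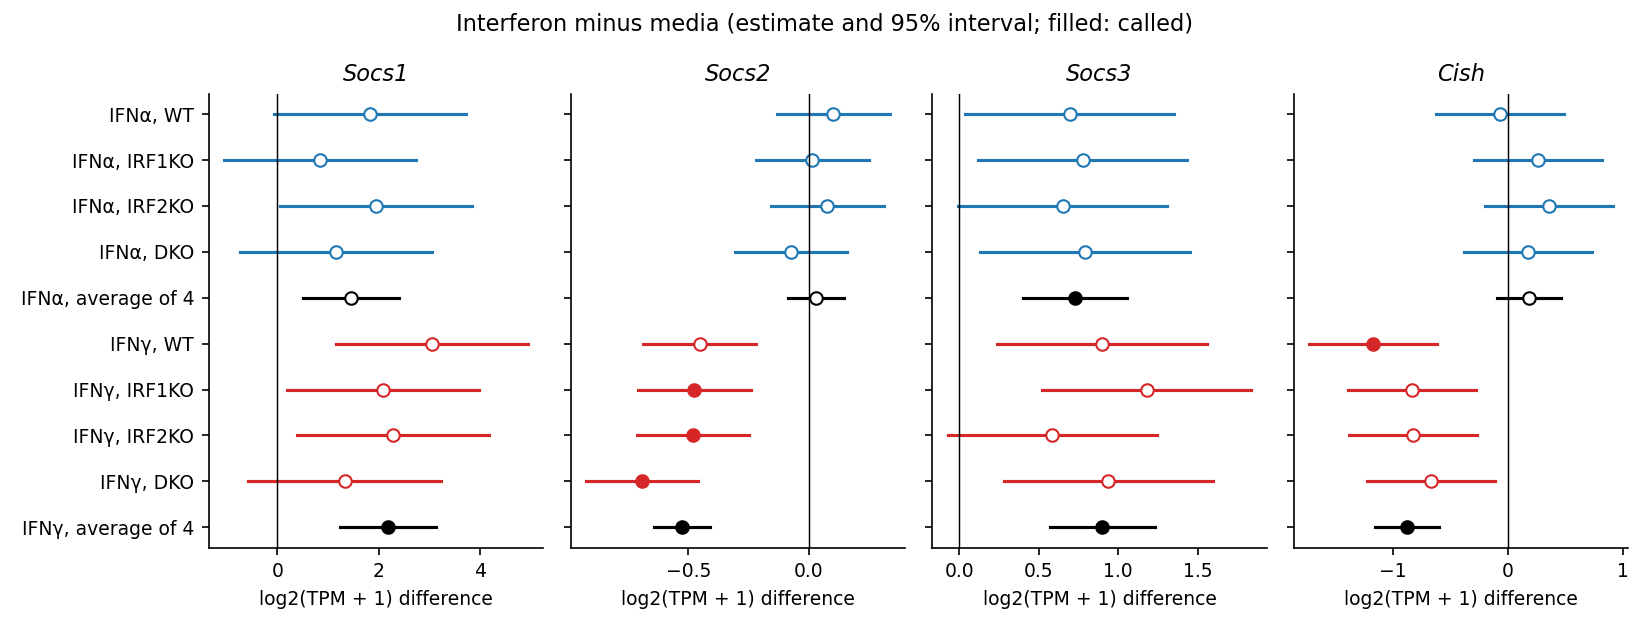
Difference in log2(TPM + 1) between interferon and media (x axis) with its 95% interval, for each genotype and for the average over the 4, with IFNα in blue, IFNγ in red and averages in black, and filled points for called differences. Averages with IFNγ lie above 0 for Socs1 and Socs3 and below 0 for Socs2 and Cish.

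In all, 4 of the 32 differences between interferon and media within a genotype were called, all lower, and 15 with the replicate block. Of all genes, the IFNα comparisons called 1.04% in WT, 0.819% in IRF1KO, 1.39% in IRF2KO and 1.01% in DKO, and the IFNγ comparisons 1.26%, 1.16%, 1.13% and 0.777% in that order. With the replicate block these were 1.41%, 1.11%, 1.82% and 1.51% for IFNα and 1.93%, 1.76%, 2.05% and 1.66% for IFNγ. Between IFNγ and IFNα 5 of 16 member differences were called, against 0.768%, 0.946%, 0.819% and 0.904% of all genes, and 8 of 16 with the replicate block, against 1.49%, 1.51%, 1.25% and 1.55%. The averages called 2.49% of all genes for IFNα, 4.01% for IFNγ and 3.04% for IFNγ against IFNα.

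The 9 calls within single genotypes rested on few libraries. Fitted on the 2 compared groups alone, none of the 9 was called. The Cish call in WT was also lost with no filter on low values (adjusted p = 0.0702, limma). That in IRF2KO was lost in 5 other settings, namely a pseudocount of 0.1, a filter at a mean of 5 TPM, no filter at all, median-of-ratios scaling and quantile normalisation (adjusted p from 0.0508 to 0.0884, limma). The Socs2 call in IRF1KO against media was lost at pseudocounts of 0.1 and 5, with median-of-ratios scaling and with robust variances (adjusted p from 0.052 to 0.0618, limma), and that against IFNα at a pseudocount of 0.1 (0.0524). Without 1 of their 4 libraries, the Socs2 calls between IFNγ and media in IRF1KO and in IRF2KO and between IFNγ and IFNα in IRF1KO were lost whichever library was left out, with differences from -0.55 to -0.40, -0.58 to -0.39 and -0.56 to -0.42. In DKO the Socs2 call against media was lost without media replicate 1, and that against IFNα without IFNα replicate 1 or IFNγ replicate 2, with differences from -0.80 to -0.59 and -0.67 to -0.57 over the 4 libraries. The Socs2 calls between the interferons in WT and in IRF2KO were lost without either IFNα library or without IFNγ replicate 2, with differences from -0.68 to -0.43 and -0.65 to -0.47. The Cish call in WT was lost without either media library or IFNγ replicate 2 (-1.59 to -0.74), and that in IRF2KO without IFNα replicate 1 or either IFNγ library (-1.47 to -0.90). None of the 7 called interferon averages was lost under the settings run or without any 1 of their 16 libraries.

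The second question was whether the loss of IRF1 or IRF2 altered these levels. Transcripts of the targeted genes were still measured in the lines, with 19.7 and 22.5 TPM of Irf1 in WT media against 30.6 and 23.6 in IRF1KO, and 23.4 and 25.2 TPM of Irf2 in WT against 18.2 and 17.4 in IRF2KO. With IFNα, Irf1 stood at 194 and 166 TPM in WT and at 324 and 281 in IRF1KO. Averaged over treatments, Irf1 was called higher than in WT in IRF1KO, at 0.54 ± 0.10 (adjusted p = 0.0209, limma), and in DKO, at 0.46 (0.0108). Irf2 was called lower in IRF2KO, at -0.43 ± 0.08 (adjusted p = 0.00387, limma), and in DKO, at -0.45 (0.0025). A targeting that ends a protein need not remove its RNA, so these values do not check the labels.

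Socs1 was the member with the highest differences between lines. In media the IRF2KO libraries (28.0 and 37.9 TPM) and the DKO libraries (39.5 and 52.0) lay above both WT libraries (3.58 and 17.8), while IRF1KO (8.33 and 28.7) overlapped WT. The media difference from WT was 1.86 ± 0.89 in IRF2KO and 2.32 ± 0.89 in DKO. It was 1.97 and 1.64 with IFNα and 1.09 and 0.60 with IFNγ in the same order. Within replicate numbers Socs1 was higher than in WT in 6 of 6 pairs for IRF2KO and in 5 of 6 for DKO. Averaged over the treatments, the difference was 1.64 ± 0.52 in IRF2KO (3.11-fold, adjusted p = 0.0966, limma), 1.52 ± 0.52 in DKO (2.87-fold, adjusted p = 0.101, limma) and 0.19 ± 0.52 in IRF1KO, and none was called.

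With the number as a block within each treatment, an alternative chosen after the values were seen, the Socs1 averages were called in IRF2KO (adjusted p = 0.000581, limma) and in DKO (0.000797), in fits that called 11.4% and 15% of all genes. In the same alternative Socs1 was called higher in IRF2KO in media (adjusted p = 0.0403, limma, with 1.74% of all genes called), in IRF2KO with IFNα (0.0252, with 2.37%) and in DKO in media (0.00989, with 2.32%). With the plain replicate block none of these was called.

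Socs2 was higher in DKO as an average over treatments. The DKO media libraries held 88.1 and 75.8 TPM, above the 59.5 and 62.0 of WT, and with IFNα they held 79.6 and 75.7 against 66.1 and 64.6. The difference from WT was 0.42 ± 0.11 in media (adjusted p = 0.127, limma), 0.25 with IFNα and 0.18 with IFNγ, none of them called. The DKO and WT groups, of 2 libraries each, did not overlap under any of the 3 treatments. This is a description only, since how many of all genes lacked overlap was not counted. With the replicate block the media difference was called (adjusted p = 0.0281, limma), in a fit that called 1.6% of all genes. Averaged over treatments, Socs2 rose by 0.28 ± 0.06 in DKO against WT (1.22-fold, adjusted p = 0.0134, limma). This call was lost without DKO media replicate 1 or WT IFNγ replicate 2, with differences from 0.24 to 0.33 over the 12 libraries. In IRF1KO and IRF2KO the average differences of Socs2 were 0.02 and 0.10, each with an SE of 0.06.

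Socs3 and Cish passed no test between lines without a block. Averaged over treatments, Socs3 differed from WT by 0.35 ± 0.18 in IRF1KO, by -0.02 in IRF2KO and by 0.34 in DKO, the last called with the replicate block (adjusted p = 0.0199, limma), in a fit that called 12.6% of all genes. All 6 pairs within a replicate number were higher in IRF1KO and in DKO. Cish differed by 0.09 ± 0.15 in IRF1KO, -0.18 in IRF2KO and 0.19 in DKO, with 95% intervals of -0.23 to 0.41, -0.50 to 0.14 and -0.13 to 0.51.

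**Figure D4:**
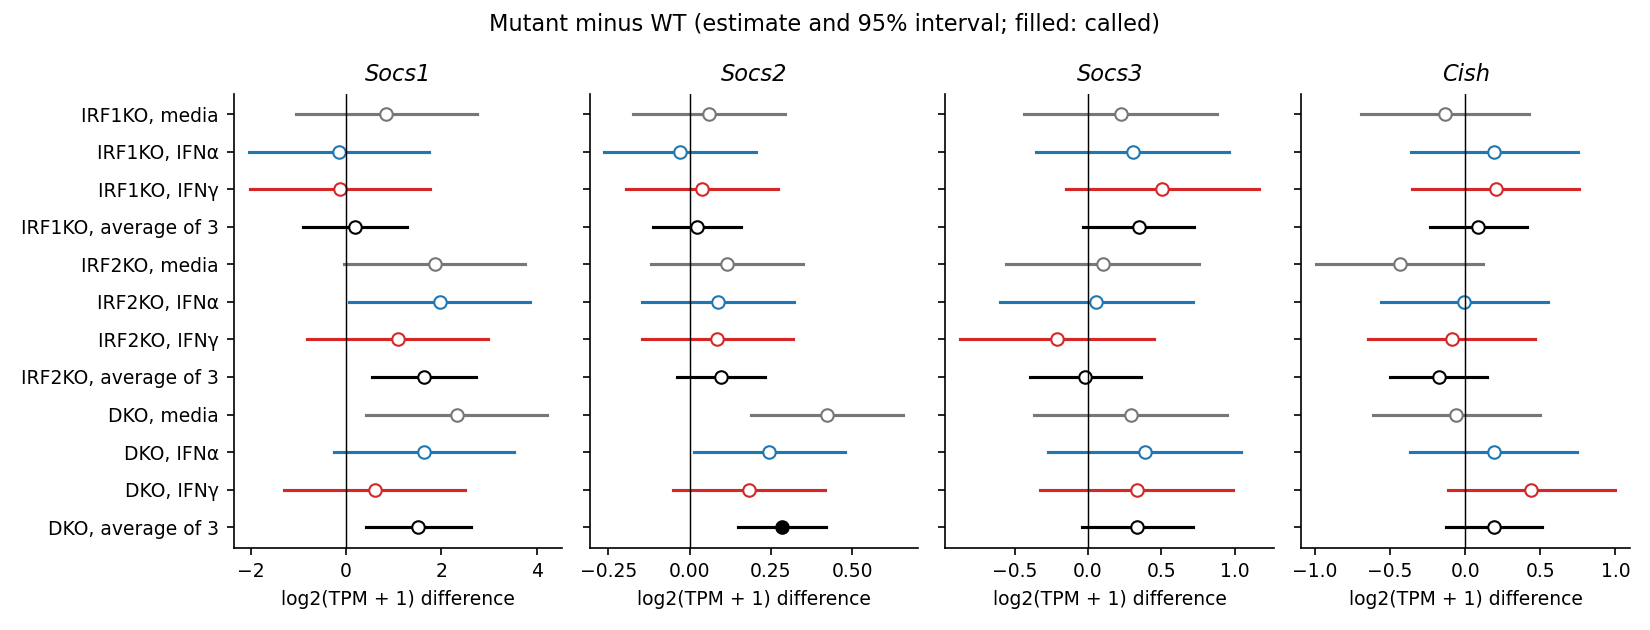
Difference in log2(TPM + 1) between each mutant line and WT (x axis) with its 95% interval, for media (grey), IFNα (blue), IFNγ (red) and their average (black), and filled points for called differences. The only filled point is Socs2 in DKO averaged over treatments, at 0.28.

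None of the 36 differences between a mutant and WT within a treatment was called, and 4 had an unadjusted p under 0.05 (limma). Among 11842 genes, that p was under 0.05 for 305, 269 and 287 in IRF1KO with media, IFNα and IFNγ. For IRF2KO these were 869, 1095 and 1010, and for DKO 836, 1008 and 1065. With the replicate block 1 of the 36 was called and with the block within treatments 4. Of all genes, the comparisons with WT called 0%, 0.177% and 0.236% for IRF1KO in media, IFNα and IFNγ, 0.836%, 0.971% and 0.802% for IRF2KO, and 0.76%, 1.05% and 1.31% for DKO. The averages called 0.355%, 4.37% and 5.83% of all genes for the 3 lines.

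Whether a mutant changed the response to interferon was asked with the difference between its interferon effect and that of WT. None of 24 such differences was called by limma, and 0 had an unadjusted p under 0.05, beside 0.0253%, 0.0676% and 0.0844% of all genes called for IFNα and 0.0844%, 0.0338% and 0.0929% for IFNγ in IRF1KO, IRF2KO and DKO. They ran from -1.72 ± 1.26 for Socs1 in DKO with IFNγ (95% interval -4.40 to 0.96) to 0.50 ± 0.37 for Cish in DKO with IFNγ (-0.29 to 1.28). With these SEs, a several-fold change in the response of Socs1 was not detectable. Among 11842 genes, the unadjusted p (limma) was under 0.05 for 203, 394 and 166 with IFNα in IRF1KO, IRF2KO and DKO. With IFNγ these were 175, 175 and 248.

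The separate set of 6 libraries gave each member 1 value per condition, with no replicate check. Its untreated libraries were taken at 0 h and its treated ones at 2 h, so time and treatment cannot be told apart. Rows of a symbol were summed separately in this set, and its levels are not set beside those above. Socs3 stood at 7.88 TPM in untreated WT, 12.6 with IFNα and 49.0 with LPS, and at 11.1, 10.6 and 62.2 in IRF2KO. With LPS it was 6.22-fold the untreated value in WT and 5.59-fold in IRF2KO. Cish stood at 129, 141 and 243 TPM in WT and at 136, 123 and 254 in IRF2KO, 1.88- and 1.87-fold with LPS. Socs2 was lower with LPS, at 29.8 against 46.4 TPM in WT and 29.2 against 64.8 in IRF2KO. Socs2 and Cish, which moved in the same direction with IFNγ, thus stood on opposite sides of their untreated values with LPS.

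Socs1 stood at 3.50 TPM in untreated WT, 10.5 with IFNα and 3.49 with LPS, and at 6.17, 24.6 and 7.78 in IRF2KO. The ratio of IFNα to untreated was 3.01 in WT and 3.99 in IRF2KO. In each of the 3 conditions Socs1 was higher in IRF2KO than in WT, by 1.76-, 2.34- and 2.23-fold. A difference of at least 2-fold on the log2(TPM + 1) scale was seen for Socs1 with IFNα in both lines, for Socs3 with LPS in both lines and for Socs2 with LPS in IRF2KO. Among 10666 genes such differences made up 1.97% with IFNα and 3.17% with LPS in WT, and 2.14% and 4.44% in IRF2KO. The median gene differed by -0.15 with LPS in IRF2KO.

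**Figure D5:**
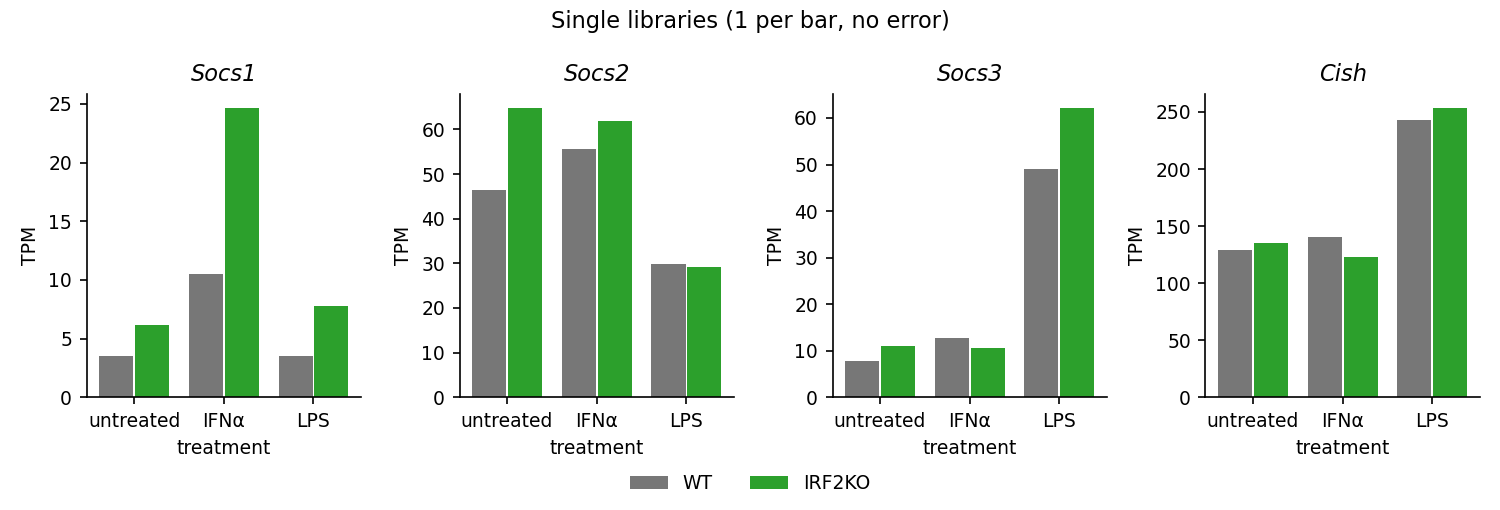
TPM of each member in the 6 single libraries, with WT in grey and IRF2KO in green, 1 library per bar and no error. Socs1 is highest with IFNα and Socs3 and Cish are highest with LPS in both lines.

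The rest of the pathway was followed through lists chosen by name. The relatives Socs4, Socs5, Socs6 and Socs7 had medians of 8.03, 2.00, 42.6 and 2.29 TPM over the 24 libraries, and 0 of 4 were called with either interferon in WT. Among the STAT factors, Stat2 rose with IFNα in WT from 4.62 to 33.2 TPM (2.61 ± 0.26) and Stat3 from 61.0 to 118 TPM (0.94 ± 0.13). With IFNγ they reached 31.4 and 195 TPM. Of 4 JAK kinases and 6 partners of the SOCS box, none was called with either interferon in WT. Of 15 cytokine and interferon receptors, 1 was called higher with IFNγ in WT, Il4ra, the receptor chain for interleukin 4, from 30.7 to 72.6 TPM. None was called with IFNα in WT, where Il4ra stood at 43.0 TPM. Il4ra was called higher with IFNα in IRF1KO (0.66), IRF2KO (0.73) and DKO (0.64). Its IFNα average over genotypes was also called, at 0.62 ± 0.07 (adjusted p = 1.89e-05, limma), beside 2.49% of all genes.

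Among 16 other restraints of cytokine signalling, 2 rose with IFNα in WT. Usp18 rose from 2.25 to 74.2 TPM and Isg15, a ubiquitin-like modifier, from 2.80 to 71.9 TPM. With IFNγ 1 rose, Usp18, to 6.03 TPM, and 2 with the replicate block. Of 12 genes known to follow STAT5 or STAT3, 1 rose with IFNγ in WT, the transcriptional repressor Bcl6, from 1.46 to 8.83 TPM, and 2 with the replicate block. None of the 12 was called lower with IFNγ against media in WT. Averaged over genotypes, Bcl6 was called higher with IFNγ against IFNα, at 1.59 ± 0.11 (adjusted p = 4.66e-08, limma). In the same average 1 of the 12, Id1, an inhibitor of helix-loop-helix factors, was called lower, at -0.78 ± 0.15 (adjusted p = 0.00398, limma). That average called 3.04% of all genes.

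Between each mutant and WT in media, 0 genes of these lists were called, and 1, Isg15 in DKO, was called lower with the replicate block. With IFNγ the DKO libraries held less Usp18 (-1.29, adjusted p = 0.00344, limma), Isg15 (-1.88, 0.0165) and Stat2 (-1.21, 0.0267) than WT. Averaged over treatments, Socs5, a member of the SOCS family outside the 4, was called higher in DKO, at 0.43 ± 0.10 (adjusted p = 0.0125, limma). In the same average Il2rg, the shared gamma chain of several interleukin receptors (0.31), Spred2 (0.59) and Ccnd2, a cyclin (0.37), were called higher and Isg15 lower (-1.33). With the replicate block the DKO average called 5 of 15 receptors and 7 of 12 genes known to follow STAT5 or STAT3, all higher, in place of 1 and 1. The fit with the block called 12.6% of all genes for this average, against 5.83% without it. In IRF2KO the averages of Il2rg (0.34), Usp18 (0.55) and Ccnd2 (0.30) were called higher, beside 4.37% of all genes. With the replicate block the IRF2KO average called 3 of 15 receptors higher and 2 lower. It also called 3 of 12 genes known to follow STAT5 or STAT3 higher. The share of all genes for that blocked average is not given here. Id1, the genes of these averages and those of the DKO comparison with IFNγ were named after their values were seen.

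Over the 12 group means, Socs2 and Cish followed each other with a Pearson r of 0.886, and Socs1 and Socs3 with 0.657. These groups share their treatments, so the values describe the pattern only. Among 8822 other genes with a mean of at least 5 TPM, the 3 most like Socs1 were the death receptor gene Fas (0.961), the NF-kB inhibitor gene Nfkbia (0.939) and Slc11a2 (0.932). Those most like Socs3 were Irf1 (0.945), Sbno2 (0.945) and Il4ra (0.924). Those most like Socs2 were 1810011H11Rik (0.954), Nabp1 (0.926) and Znrf2 (0.925), and those most like Cish were 2010111I01Rik (0.941), AK161362 (0.935) and Ptgs1 (0.923).

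In the order of group means, Socs2 stood lowest in the 4 IFNγ groups, from 44.3 ± 5.54 (SD, n = 2) in WT to 50.2 ± 2.63 in DKO, and the range of the latter did not overlap that of the next group, WT in media. Cish had the same 4 groups lowest, from 48.5 ± 11.2 TPM in IRF2KO to 70.2 ± 11.8 in DKO, whose range reached into that of IRF2KO in media. Socs3 had the 4 media groups lowest, from 55.6 ± 16.1 TPM in WT to 67.2 ± 10.9 in DKO, without overlap with the next group. For Socs1 each group overlapped the next in order, over all 12.

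The label of the line was checked against markers in the replicated libraries. Of 13 dendritic cell markers 9 had a mean of at least 1 TPM, with Cd74 at a median of 4195 TPM and Itgax at 49.0, while Itgae, Xcr1 and Clec9a were below 1 and Flt3 was listed at 0. Macrophage and monocyte markers were also high, with 6 of 7 at 1 TPM or more and a sum from 2489 to 3485 TPM, whereas 0 of 8 lymphocyte and 0 of 6 fibroblast markers reached it. In such bulk libraries fewer cells with a transcript and less transcript per cell cannot be told apart. TPM values carry no total of reads, and the depth of each library is therefore unknown. The number of genes at 1 TPM or more lay between 10911 and 11101 per replicated library.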

How the data were processed

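RNA sequencing values for 30 libraries were used as deposited, in TPM, which the authors made with bcl2fastq 2.20, Bowtie 0.12.2 and RSEM per the submitters' processing notes, which also name mm10 and GRCm38. Rows of a symbol were summed within the 24 replicated and, separately, the 6 single libraries. TPM keeps no read counts, so log2(TPM + 1) was modelled with limma 3.58.1 (R 4.3.3), using 12 group means and a trended prior variance (12 residual degrees of freedom), and 11842 genes that reached 1 TPM in 2 or more of 24 libraries. Tests were two-sided, with Benjamini-Hochberg adjustment within each of 27 comparisons and 6 averages added later. The fitting was tested on simulated data for WT with IFNγ against media. The simulated libraries had no gap between replicate numbers, so that test says nothing on calls that depend on such a gap. Single libraries were compared by log2(TPM + 1) with no test. Python 3.11.15 with pandas 2.3.3, numpy 2.4.6 and matplotlib 3.10.9 was used otherwise.

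The members and lists were chosen with earlier results of these data known. Genes named besides the members are the targeted genes, the 3 genes most like each member, and up to 3 called genes with the smallest p per list. A gene of these lists is not reported here. Each replicate number carries 1 code in the sample titles, so the numbers were taken to pair the libraries. Deviations of same-numbered libraries had a median correlation of 0.233 over 66 group pairs, which ran from -0.16 to 0.481 and passed 0.1 in 56. Results with the replicate block are given where they change a call of a member. For genes of the lists they are given only in part. Alternatives were pseudocounts of 0.1 and 5, other filters, median-of-ratios and quantile scaling, robust variances, replicate blocks, the compared groups alone, and leaving out each library.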

Additional observations from a re-analysis of the deposited data

How the results depend on the processing

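Over the 132 differences of the 4 members, 2160 values were recomputed under an alternative. Of these 1964 kept their direction and side of the threshold, 49 lost a call (29 by leaving out 1 library), 48 gained one (4 by leaving out 1 library) and 99 changed sign, all of them without a call before or after. The 4 calls between interferon and media became 15 with the replicate block, 18 with the block within treatments, 1 with the compared groups alone, and 1 to 5 when each library was left out. The 5 calls between IFNγ and IFNα became 8 with the replicate block, 8 with the block within treatments, 3 at a pseudocount of 0.1, 0 with the compared groups alone, and 2 to 7 when each library was left out. The 0 calls between mutant and WT became 1 with the replicate block and 4 with the block within treatments. The 8 calls among the added averages became 9 with the replicate block and 12 with the block within treatments, and 7 to 10 without 1 library. Differences between interferon effects had 0 calls in every alternative run. Fits on the compared groups alone have fewer samples to estimate the spread from. Among the values printed, signs changed by leaving out 1 library for Socs1 in DKO against WT with IFNγ (-0.33 to 1.53), for the IRF1KO averages of Socs1 (-0.20 to 0.58), Socs2 (-0.0192 to 0.0642) and Cish (-0.0541 to 0.228), and for the IRF2KO average of Socs3 (-0.15 to 0.11). The depth of the libraries is unknown, and 2 libraries a group limit the precision.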

Other observations

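The gaps between replicates 1 and 2 that Socs1 showed over the 12 groups were shared by other genes, a pattern described after the values were seen. Of 8825 other genes with a mean of at least 5 TPM, 135 had gaps that followed those of Socs1 with a Pearson r of at least 0.9 over the 12 groups, against 1 for Socs2, 5 for Socs3 and 0 for Cish. The 3 highest were Hlx (0.995), a homeobox gene, Rab6a (0.99), a small GTPase of the Golgi, and Uvrag (0.99), which acts in autophagy. In each of these 3, replicate 2 was higher in 4 of 4 media groups and replicate 1 in 4 of 4 IFNα groups, as for Socs1. The gaps of Hlx ran from -1.93 to 1.57 on the log2 scale. Of 8826 genes, 261 (2.96%) had this order of replicates in all 8 groups, and 31 of them had a median gap of at least 1.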
